A study of Drosophila melanogaster with 2 samples.

Results

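The losing windows are stretches of 10 kb in which H3K9me2 tags were fewer in the EHMT mutant than in its control. They were chosen by the measured log2 ratio of EHMT+ to EHMTDD1 tags in the same data, with a limit of 0.5 or more. Arms 2L, 3L, 3R and X were divided into 10-kb windows from base 1, 1 Mb at the centromeric end was left out, and each tag was counted once at its midpoint. Of 9385 windows, 9268 held 200 or more tags in both libraries together, and 451 of these (4.87%) were losing windows, covering 4.51 Mb. In the opposite direction, 93 windows had a log2 ratio of −0.5 or less. Because the ratio chose the members, these counts and the ratios below are descriptions and were not tested.

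The data comprised 2 H3K9me2 ChIP-seq libraries from larvae of the third instar, 1 of EHMT+ and 1 of EHMTDD1. EHMTDD1 carries a deletion at the start of the EHMT gene that arose by imperfect excision of a P-element, and EHMT+ is a precise excision of the same element, labelled wild type, so that both share that background. The sex and number of the larvae are not given in the sources used here, and each mutant or control is 1 fly line and 1 library. No difference between the genotypes therefore has a replicate check, no p-value was computed, and the intervals given are 95% intervals that cover counting error only. Each library held 7043913 tags after the authors equalized them. On the arms used here the totals ran from 1177198 tags on 2L to 1392747 on 3R in EHMT+, and from 1147157 to 1416913 in EHMTDD1. Whole larvae were used, so less H3K9me2 per cell and fewer cells with the mark cannot be told apart. No input library was used, and the EHMT deletion was not checked in the tags.

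Dimethylation of lysine 9 of histone H3 is a mark of condensed and repressive chromatin. It is dense in the heterochromatin around centromeres and present at lower levels across the euchromatic arms. EHMT, also called G9a, is the single fly member of a family of enzymes that write this mark in euchromatin, while other methyltransferases such as Su(var)3-9 and Eggless act in heterochromatin. A loss that fills a 10-kb window involves many neighbouring nucleosomes, whereas a local dip at a gene end involves a few.

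A typical losing window held somewhat more EHMT+ tags than other windows and far fewer EHMTDD1 tags. EHMT+ had a median of 530 tags per losing window (quartiles 427.5 and 671.5, range 123 to 1783), against 490 tags in the 8817 other windows (quartiles 415 and 582). EHMTDD1 had a median of 333 tags (quartiles 260.5 and 419.5, range 38 to 1228) against 496 (quartiles 414 and 598). Losing windows were thus found at low, ordinary and high control tag counts, and in EHMT+ the groups overlapped widely. In EHMTDD1, 330 losing windows (73.2%) were below the lower quartile of the other windows. Low counts were in part those of windows in which bins of 300 bp held no tag in either library. Without the windows with 3 or more such bins, the lowest EHMT+ count of a losing window was 255. By tags in both libraries together, however, the share of losing windows was highest at low totals. It was 19.2% (32 of 167) at 200 to 399 tags, 9.94% at 400 to 599 and 8.29% at 600 to 799. It was 3.80% at 800 to 999, 3.51% at 1000 to 1199, 2.64% at 1200 to 1599 and 7.00% at 1600 or more. The part of counting error and of bins without tags in these shares was not tested. Both counts enter the ratio, so a higher EHMT+ and a lower EHMTDD1 level follow in part from the choice.

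**Figure D1:**
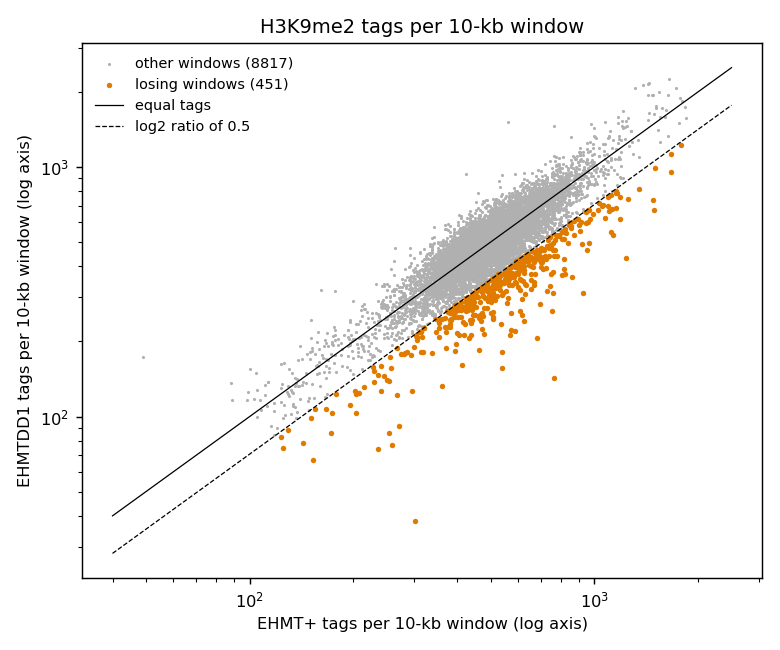
H3K9me2 tags of EHMT+ (x axis) and EHMTDD1 (y axis) in each of 9268 windows of 10 kb, both on log axes, with the 451 losing windows in orange and the 8817 other windows in grey. The losing windows lie below the dashed line of a log2 ratio of 0.5, from 123 to 1783 EHMT+ tags, and 53 of them have a log2 ratio of 1 or more.

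The losing windows with most control tags differed in how far the mutant level fell. EHMT+ was above the upper quartile of the other windows in 183 losing windows. In 62 of these (13.7% of all losing windows) EHMTDD1 was below its lower quartile, with medians of 624.5 EHMT+ and 372 EHMTDD1 tags and a log2 ratio of 0.84. In 87 windows (19.3%) EHMTDD1 was between its quartiles, so that an H3K9me2-rich window of the control had an ordinary level in the mutant, and in 34 (7.54%) it was above the upper quartile and stayed tag-rich. In the other losing windows EHMT+ was between the quartiles (167 windows) or below the lower one (101 windows), and the limit on the ratio then places EHMTDD1 below its lower quartile.

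The loss was modest in most losing windows and deep in a few. The log2 ratio had a median of 0.65 (quartiles 0.56 and 0.78), a fold of 1.57, and it was under 0.6 in 174 windows. It reached 0.75 in 125 windows and 1 in 53. The lower bound of the fold's counting interval was above the limit itself in 160 windows, which included all 53 windows at 1 or more. Plus-strand tags and minus-strand tags, counted apart, were each at 0.5 or more in 330 windows (73.2%) and each above 0 in all 451. The strands add up to the counts that chose the windows, so this follows in part from the choice and is not a replicate check.

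Windows at the limit show how little separates members from their neighbours in rank. Just inside it were 2L from 12200001 to 12210000, with 505 EHMT+ and 357 EHMTDD1 tags, X from 14880001 to 14890000, with 607 and 429 tags, and 2L from 21070001 to 21080000, with 593 and 419 tags. Just outside it were 3L from 18450001 to 18460000, with 492 and 348 tags, 3R from 2340001 to 2350000, with 376 and 266 tags, and X from 6980001 to 6990000, with 752 and 532 tags. All 6 had a log2 ratio that rounds to 0.50.

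The deepest loss was on 3R from 17130001 to 17140000 (coordinates are of BDGP Release 5 throughout), where EHMT+ had 301 tags and EHMTDD1 had 38, a fold of 7.92 (5.64 to 11.4). Tags of either library lay in only 16 of its 33 bins of 300 bp, and the longest stretch without a tag was 4155 bp in EHMTDD1 and 4179 bp in EHMT+, so the fold describes part of the window. The second was on X from 9070001 to 9080000, with 765 EHMT+ and 143 EHMTDD1 tags, a fold of 5.35 (4.47 to 6.44). There every one of 34 bins held a tag, every one had fewer EHMTDD1 tags, and the EHMT+ count exceeded that of 93.6% of all windows while the EHMTDD1 count was in the lowest 0.928%.

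The other 8 of the 10 highest ratios ran from a log2 ratio of 1.56 to 1.78. Among them, 2L from 16240001 to 16250000 had 683 and 207 tags (3.30-fold, 2.82 to 3.87) and 2L from 21380001 to 21390000 had 924 and 313 tags (2.95-fold, 2.59 to 3.37), both with tags in every bin. Of these windows, 3L from 23160001 to 23170000 (540 and 157 tags), 3L from 8010001 to 8020000 (259 and 77), 2L from 21600001 to 21610000 (539 and 181), X from 3650001 to 3660000 (254 and 86) and X from 9990001 to 10000000 (271 and 92) had 11 to 21 bins without a tag in either library. The last one, 3L from 23180001 to 23190000, had 236 and 74 tags and 3 such bins. Windows with many bins empty in both libraries were thus frequent among the deepest losses.

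The 5 losing windows with most EHMT+ tags are H3K9me2-rich in the control because they were picked for that count, and they differed in fold. On 3L from 23020001 to 23030000 EHMT+ had 1783 tags and EHMTDD1 had 1228, a fold of 1.45 (1.35 to 1.56). The window before it had 1670 and 1125 tags, and 3L from 23000001 to 23010000 had 1493 and 673 tags, a fold of 2.22 (2.02 to 2.43). On 3L from 23270001 to 23280000 the counts were 1666 and 951 (1.75-fold), and on X from 16360001 to 16370000 they were 1500 and 992 (1.51-fold). In 4 of these 5 windows EHMTDD1 still exceeded 97.9% of all windows or more, the exception being 3L from 23000001, at 86.3%.

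Losing windows often lay side by side. The 451 windows formed 343 runs on the 10-kb grid, of which 272 were single windows, 48 had 2 windows, 13 had 3, 9 had 4 and 1 had 8. A neighbouring losing window was present for 179 of the 451 (39.7%), and of the 883 places on either side of a losing window, with a pair of adjoining windows counted from both sides, 216 (24.5%) held a losing window, against 4.87% of all windows. Windows in runs of 2 or more had a median log2 ratio of 0.67 with 605 EHMT+ and 353 EHMTDD1 tags, and single windows had 0.62 with 505 and 317 tags. Runs of 2 or more windows carried 45737 of the 100260 tags by which EHMT+ exceeded EHMTDD1 in losing windows.

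The longest run covered 80 kb on 3L from 22950001 to 23030000, with 9235 EHMT+ and 5181 EHMTDD1 tags, a fold of 1.78 (1.72 to 1.84). Its 8 windows had log2 ratios of 0.62, 1.14, 1.07, 1.36, 1.00, 1.15, 0.57 and 0.54 in order of position, so the deepest part was inside the run. EHMT+ had 760, 822 and 819 tags in the first windows, 413 tags in the fourth, where 21 bins had no tag in either library, and 1475 to 1783 tags in the rest. Outside it the ratio fell to 0.45 in the window before and 0.22 in the window after.

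Runs of 4 windows were the next longest, and 4 of the 9 are described here, those with the largest difference in tags. On 2L from 21600001 to 21640000 there were 3266 and 1791 tags (1.82-fold, 1.72 to 1.93), and on X from 15830001 to 15870000 there were 4298 and 2824 tags (1.52-fold, 1.45 to 1.60). These were tag-rich runs, in which a window had up to 1027 EHMT+ tags on 2L and up to 1350 on X. On X from 11830001 to 11870000, with 2793 and 1372 tags (2.04-fold, 1.91 to 2.17), all 4 windows had log2 ratios between 0.80 and 1.28 and every bin held a tag. The run on 2L from 21380001 to 21420000 had 2345 and 1017 tags (2.31-fold, 2.14 to 2.48), and its EHMT+ counts fell from 924 to 295 tags towards a window with 17 tags in both libraries together, which was under the minimum. In order of position its windows had 0, 1, 6 and 12 bins without a tag in either library. The later counts thus cover less of each window. Beside these 4 runs, the adjoining windows with 200 or more tags had log2 ratios from 0.10 to 0.46.

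Around losing windows the ratio fell off within about 20 kb. The 638 windows adjacent to a run, 29 of them between 2 runs, had a median log2 ratio of 0.14 (quartiles −0.02 and 0.27), with 72.7% above 0. At a distance of 2 windows, counting from each run, the median of the windows that were not losing themselves was 0.07, and at distances of 3 to 10 windows it was 0.03 to 0.05, against −0.02 for all windows that were not losing. Adjacent windows under the limit thus shared part of the loss. Losing windows were also more frequent farther away, at 7.95 to 11.7% of windows at distances of 2 to 10 windows from a run. An adjacent window is under the limit by construction, because a losing one would belong to the run.

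**Figure D2:**
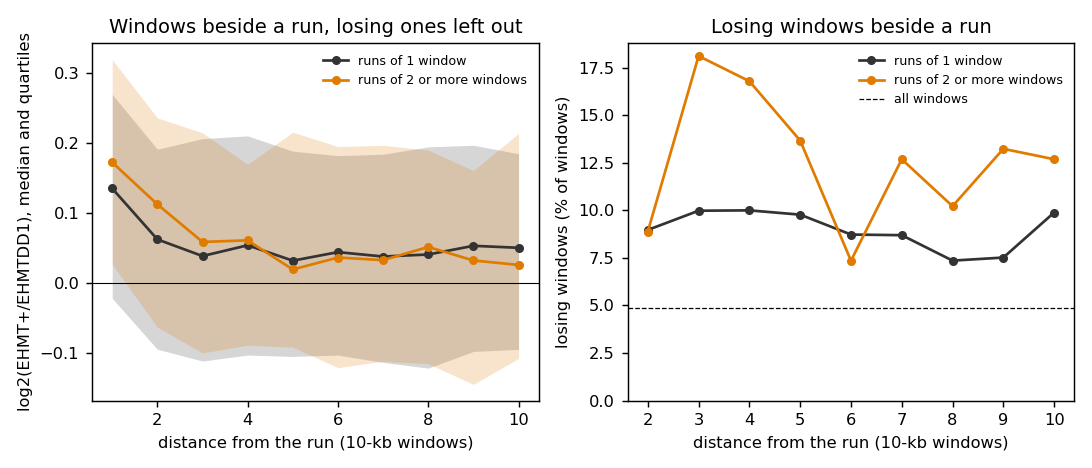
Windows, counted from each run, at 1 to 10 windows from the edge of a run of losing windows, for runs of 1 window (dark) and of 2 or more windows (orange). Left: median log2 ratio of EHMT+ to EHMTDD1 of windows that are not losing themselves, with quartiles as shading, falling from 0.14 and 0.17 beside the run to 0.06 and 0.11 at 2 windows. Right: share of losing windows at 2 to 10 windows, from 7.35 to 18.1%, above the dashed 4.87% of all windows.

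By arm, the share of losing windows was highest on X and lowest on 3R. On X, 146 of 2110 windows were losing (6.92%, Wilson interval 5.91 to 8.08%), on 3L 121 of 2325 (5.20%, 4.37 to 6.18%), on 2L 110 of 2162 (5.09%, 4.24 to 6.10%) and on 3R 74 of 2671 (2.77%, 2.21 to 3.46%). The intervals treat windows as independent, although 39.7% of losing windows adjoined another, and so understate the error. The arms as a whole also differed in the same order at the extremes, with a median log2 ratio of 0.03 on X and −0.05 on 3R. With the median of each arm set to 0, the shares came closer together, at 5.83% on X, 5.59% on 3L, 4.39% on 2L and 3.82% on 3R. The depth of loss was alike, with a median log2 ratio of losing windows from 0.62 on 2L to 0.67 on 3R.

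Losing windows were most frequent next to the centromeric ends. Within 1 Mb of the centromeric end that was left out, 65 of 381 windows were losing (17.1%, 13.6 to 21.2%), and between 1 and 2 Mb 14 of 385 (3.64%, 2.18 to 6.01%). At 2 to 5 Mb the share was 4.32%, at 5 to 10 Mb 5.98% and farther out 3.80%. The rise next to the centromeric end was on 2L, with 29 of 85 windows (34.1%), on 3L, with 23 of 99 (23.2%), and on X, with 13 of 98 (13.3%). On X, where 6.92% of all windows were losing, single segments of 1 Mb elsewhere reached like shares. These were 16.3% from 11000001 to 12000000 and 13.4% from 1 to 1000000. On 3R, 0 of 99 windows were losing there, which allows a share of up to 3.03% by 3 counts and 3.74% by the Wilson interval used for the other shares. The median over all windows of this first megabase, losing or not, was 0.30 on 2L, 0.14 on 3L, 0.13 on X and 0.03 on 3R. With 2 Mb left out, 386 losing windows remained, and the longest run had 4 windows. Farther from the centromeric end, X at 5 to 10 Mb stood above the other arms, with 51 of 491 windows (10.4%, 7.99 to 13.4%). As for the arms, these intervals and the bounds for 3R treat windows as independent and so understate the error.

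**Figure D3:**
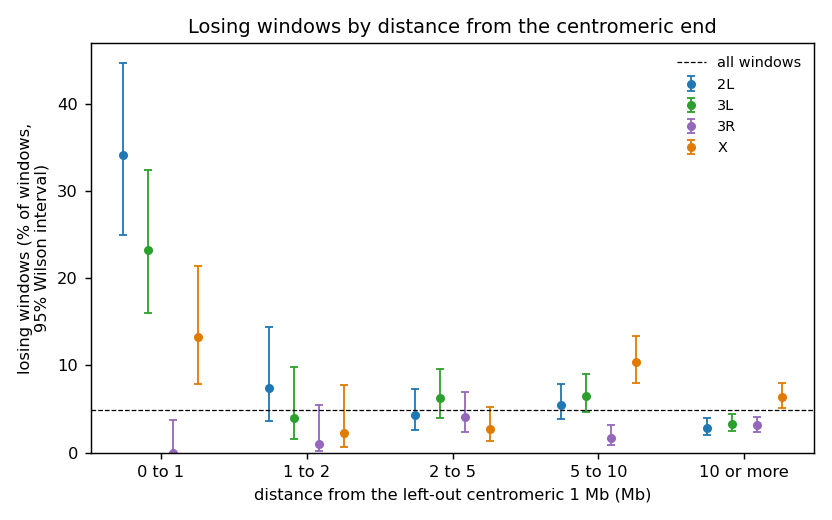
Share of 10-kb windows that were losing (y axis, percent, with 95% Wilson intervals) by distance from the left-out centromeric 1 Mb (x axis, Mb) on 2L, 3L, 3R and X. The dashed line is the 4.87% of all windows. The intervals treat windows as independent and so understate the error. Within 1 Mb the share was 34.1% on 2L, 23.2% on 3L, 13.3% on X and 0 of 99 windows on 3R.

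In segments of 1 Mb the losing windows were uneven. Of 95 segments 6 had none, the median was 4, and 12 segments with 10 or more held 158 of the 451 (35.0%). Most were on 2L from 21000001 to 22000000, the segment next to the left-out end, with 29 of 85 windows and 1.26 times as many EHMT+ as EHMTDD1 tags over all its windows. The second was on X from 11000001 to 12000000, with 16 of 98 windows, and the third place was shared by 3L from 23000001, with 13 of 53 windows, and X from 1 to 1000000, with 13 of 97. Over all windows of the latter segments EHMT+ had 1.00 and 1.01 times as many tags as EHMTDD1, so that over the remaining windows EHMTDD1 had more tags than EHMT+.

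To see whether the loss in a window was spread evenly or lay in a few places, the same tags were counted in 300-bp bins. Of 13865 bins with a tag inside losing windows, 10548 (76.1%, 75.4 to 76.8%) had fewer EHMTDD1 than EHMT+ tags and 2864 had more, against 47.5% with fewer in the other windows. This Wilson interval treats bins as independent, although they lie together in 451 windows, and so understates the error. Per window the share ran from 55.9 to 100%, with a median of 75.8% (48.5% in other windows). The median bin of a losing window had a log2 ratio of 0.81 after 1 was added to both counts, and in all 451 windows the median bin was above 0. A majority of tagged bins was therefore on the losing side in every losing window. The bins divide the tags whose ratio chose the members, so a share above that of other windows follows in part from the choice.

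Larger pieces gave the same picture, with the same limit from the choice of windows. Cut into 2 pieces of 5 kb, 419 windows (92.9%) had a log2 ratio above 0 in both, against 25.2% of other windows, and 192 (42.6%) had 0.5 or more in both. Cut into 10 pieces of 1 kb, a median of 8 pieces had fewer EHMTDD1 tags, against 5 in other windows. All 10 had fewer in 74 losing windows (16.4%) and in 22 of 8817 other windows (0.250%). At the other end, 39 losing windows had 5 pieces or fewer with fewer EHMTDD1 tags. A piece of 5 kb or 1 kb without a tag in either library counted as not losing. The 39 therefore include windows with few tagged pieces, such as 3R from 22200001, where 4 of 4 tagged 1-kb pieces had fewer EHMTDD1 tags.

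The loss was not uniform from bin to bin, however. A bin limit was set at the mean plus 2 SD of the log2 ratio over the 312895 bins of the 4 arms, with tags counted in every bin they overlapped and 1 added to both counts. This limit was 1.89, or 3.70-fold, and 5.1% of the bins in all windows exceeded it. In losing windows 3158 of 15029 bins (21.0%) did, with a median of 6 bins per window, and in other windows 4.28%, with a median of 1. These bins held 21.6% of the EHMT+ tags of losing windows and 49.4% of the tags missing in EHMTDD1. Windows with 10 or more such bins numbered 116, and 6 losing windows had none.

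Without these strongest bins most losing windows kept a smaller loss. Their median log2 ratio was then 0.41 (quartiles 0.30 and 0.53), and pooled over all losing windows it was 0.42, against −0.08 in the other windows treated in the same way. Of the 451 windows, 140 (31.0%) stayed at 0.5 or more, 304 were between 0 and 0.5, and 7 were at or below 0. The bins were left out for their ratio, so a lower value follows from the choice, and what remains shows that 50.6% of the missing tags were missing outside them. The 7 windows whose loss lay wholly in such bins were on 2L from 21730001, 3L from 23380001, 3R from 6620001, 3R from 21420001 and X from 6970001, 7570001 and 15760001, with 8 to 20 such bins each.

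**Figure D4:**
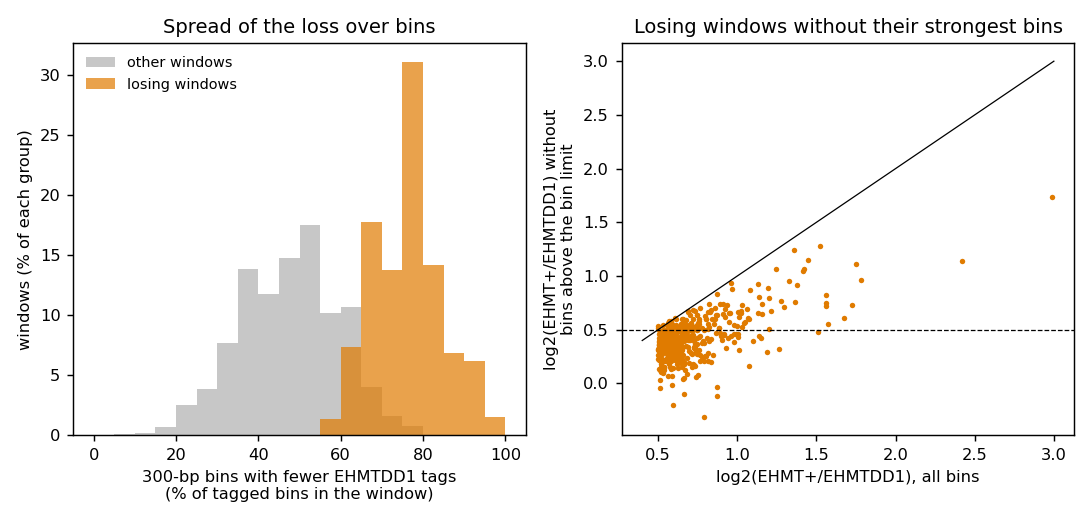
Left: share of tagged 300-bp bins with fewer EHMTDD1 than EHMT+ tags in each window (x axis, percent), as percent of the 451 losing (orange) and 8817 other windows (grey); the medians are 75.8% and 48.5%. Right: log2 ratio of each losing window with all bins (x axis) and without bins above the bin limit (y axis), with the diagonal of equal values and a dashed line at 0.5, which 140 windows reach.

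The 5 bins with the largest difference in a window, about 15.0% of its bins, held a median of 48.8% of its missing tags. Picking bins by the same tags makes this share too high. When the 5 bins were picked on plus-strand tags and the missing tags counted on the minus strand, the median was 34.4%, and in the reverse order 33.8%. Missing tags spread equally over bins would give about 15.0%, so tags of both strands were missing more from the same bins than from the rest. A loss of equal fold in every bin would also give more than 15.0%, because bins differ in EHMT+ tags and some hold none. That share was not computed, so the values do not show how uneven the fold was. A median of 6 bins made up 50% of a window's missing tags.

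Within losing windows the fold was larger in the bins where the control itself had fewer tags. The bins of each window were ranked on EHMT+ plus-strand tags into 3 groups of like size, and the minus-strand tags were then compared. In the highest group EHMT+ had 11.9 tags per bin and EHMTDD1 7.81, a log2 ratio of 0.60. In the middle group the values were 9.11 and 5.46, a log2 ratio of 0.74. In the lowest group they were 6.81 and 3.70, a log2 ratio of 0.88 and a fold of 1.84 (1.80 to 1.87) against 1.52 (1.50 to 1.54) in the highest group. The other windows had the same order around a smaller difference, from −0.07 in the highest to 0.04 in the lowest group. Ranking on the minus strand gave 0.62, 0.72 and 0.84 in losing windows.

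EHMTDD1 tags were more clumped than EHMT+ tags in losing and other windows alike, and more so inside losing windows. The variance of tags over tagged bins, divided by their mean, had a median of 8.10 in EHMTDD1 and 2.94 in EHMT+, against 5.60 and 2.30 in the other windows, where 1 would be counting error alone. EHMTDD1 had no tag in 1195 bins of losing windows in which EHMT+ had at least 1, which were 8.62% of tagged bins, and the reverse held for 22 bins. The other windows had the same imbalance at a lower rate, with 8379 bins (2.93%) empty in EHMTDD1 only and 308 in EHMT+ only. Extended EHMTDD1 tags left 15.5% of the bases of losing windows uncovered, and EHMT+ tags 7.82%, while the other windows had 5.45% and 2.71%. The longest stretch without EHMTDD1 tags in a losing window had a median of 399 bp, against 155 bp in other windows. Few EHMTDD1 tags are part of how losing windows were chosen, so more empty bins and uncovered bases in EHMTDD1 follow in part from the choice. Neither library had a tag in 7.7% of the bins of losing windows, against 2.6% in other windows.

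Named windows at the ends of this range show both forms. X from 9070001 to 9080000, described above, and 2L from 21600001 to 21610000, with tags in 18 bins, had fewer EHMTDD1 tags in 100% of tagged bins. So did 3R from 22200001 to 22210000, with 143 and 78 tags in 10 bins, while X from 10680001 to 10690000, with 568 and 213 tags (2.67-fold, 2.27 to 3.14), reached 97.0% of 33 bins. On 3L from 11720001 to 11730000, with 815 and 429 tags, the share was 96.8%. In these windows nearly all bins that held a tag had fewer EHMTDD1 tags. On 2L from 21600001 and 3R from 22200001 those were only 18 and 10 of 33 bins.

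The smallest shares belonged to windows near the limit. On 2L from 12460001 to 12470000 EHMT+ had 354 and EHMTDD1 242 tags, and 55.9% of 34 bins had fewer EHMTDD1 tags. On 2L from 5200001 to 5210000 the counts were 781 and 530, with 58.8% of bins, a log2 ratio of −0.09 in the first 5 kb and 0.97 in the second 5 kb. The shares were 56.3% on X from 4880001 to 4890000 (228 and 158 tags), 57.6% on 3R from 20910001 to 20920000 (376 and 262 tags) and 58.8% on 3L from 12970001 to 12980000 (393 and 263 tags). In these 5 windows bins with more and with fewer EHMTDD1 tags were both present, and the log2 ratio of the whole window was 0.52 to 0.58.

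**Figure D5:**
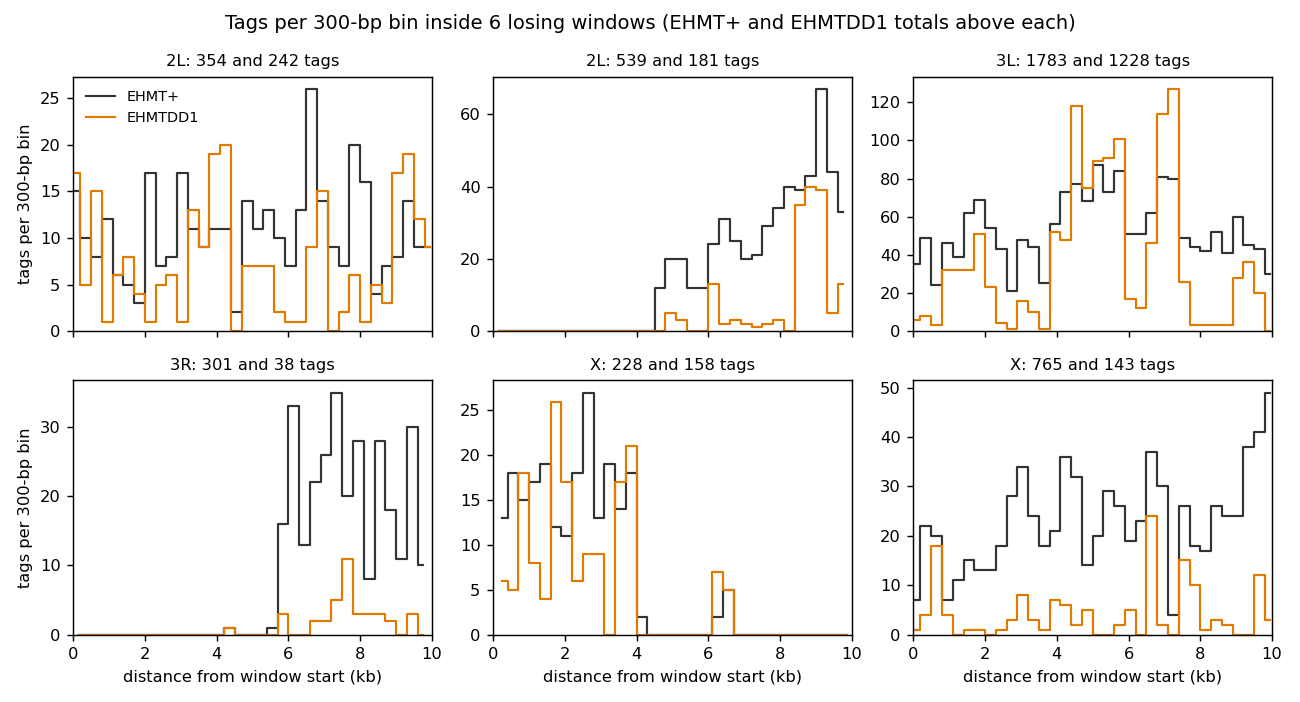
Tags per 300-bp bin, counted at the midpoint, in EHMT+ (dark) and EHMTDD1 (orange) against distance from the start of the window (kb) in 6 named losing windows, with the arm and the tag totals of both libraries above each. In the window on X with 765 and 143 tags every bin has fewer EHMTDD1 tags, whereas in those on 2L with 354 and 242 tags and on 3L with 1783 and 1228 tags EHMTDD1 is above EHMT+ in some bins and close to 0 in others.

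Losing windows more often held bins without a tag in either library. In 55 of them (12.2%) 10 or more bins had no tag in either library, against 3.83% of other windows, and 334 (74.1%) had a tag in every bin, against 89.5%. Among windows with a tag in every bin, 4.06% were losing, and among those with 10 or more untagged bins 14.0%. Windows with a log2 ratio of −0.5 or less were likewise more frequent there, at 0.803% and 3.56%. The part of counting error and of unique mapping in these shares was not tested. In the 334 losing windows with a tag in every bin, 75.6% of bins had fewer EHMTDD1 tags, close to the 76.1% of all losing windows.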

How the data were processed

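Chromatin of larvae was precipitated with an antibody against H3K9me2 and sequenced. The authors aligned reads of 36 bp to BDGP Release 5 with at most one mismatch, retained uniquely aligned tags, extended them to 300 bp and equalized the totals. The deposited files give the start, end and strand of each tag, and within a library each start and strand occurs once. How tags were dropped in equalizing is not given in the sources used here.

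From these positions, tag counts per window and bin, log2 ratios, exact conditional binomial intervals for folds and Wilson intervals for shares were computed with SciPy 1.17.1, statsmodels 0.14.6, pandas 2.3.3, NumPy 2.4.6 and Matplotlib 3.10.9 under Python 3.11.15. Windows had to lie wholly outside the left-out 1 Mb, and arm ends were taken from the last tag. The bin limit takes the study's rule for local losses, the mean plus 2 SD, but over the bins of these arms and with 1 added to both counts, so its value is not the study's. A bin belonged to the window that held its centre. Window calls and evenness measures were tested on simulated data, made by dividing the pooled tags at random and removing tags from chosen windows. Both simulated libraries were thus equally clumped, unlike the data, so this checks the computation only. The members, measures and alternatives were chosen with earlier results of these data known. The regions named were the 10 highest ratios, the 5 longest runs, the 5 windows with most EHMT+ tags, the 5 largest and 5 smallest shares of bins with fewer EHMTDD1 tags, the 3 windows on each side of the limit and the 3 segments with most losing windows (with 1 tie). The 7 windows at or below 0 without the strongest bins were named after their values were seen. The ranking of bins into groups was added after the data were seen. Arm 2R was not analysed here. Base composition and genes were not analysed here because no sequence or annotation of Release 5 was used. Alternatives covered window size and start, minimum tags, the limit, tag position, strand, scaling, pseudocount, centromeric length and bins.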

Additional observations from a re-analysis of the deposited data

How the results depend on the processing

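No paired analysis was possible because there is a single library for each genotype. The number of losing windows stayed within 1.5 times 451 under 14 of 17 alternatives (334 to 538), and the number of runs of 2 or more windows within 1.5 times 71 under 13 of 16. Windows of 5 kb gave 1431 losing windows and 213 runs, windows of 20 kb 125 and 14, and a limit of 1 on the log2 ratio gave 53 and 5. These follow in part from the number of windows and the stricter limit. Of the 451 windows, 390 were also losing on plus-strand tags alone, 390 on minus-strand tags alone, and 413 with arm medians set to 0. The tags of each strand are part of those that chose the 451 windows. In all 17 alternatives losing windows outnumbered those with the opposite ratio, by 2.85 to 17.7 times. Without bins above the bin limit, 140 windows stayed at 0.5 or more; this was 285 with a limit of 3 SD, which leaves out fewer bins, and 83 of 334 in windows with a tag in every bin. The share of bins with fewer EHMTDD1 tags, 76.1%, was 77.1% by the 5-prime end, 81.3% in 600-bp bins and 85.8% in 1-kb pieces, with 46.7 to 47.2% in other windows. The share of missing tags in 5 bins, 48.8%, was 34.4% and 33.8% across strands and 46.6% in windows with a tag in every bin. Per kb of bins with a tag, the median EHMT+ level was 56.5 tags in losing and 49.6 in other windows. Restricting to windows with a tag in every bin was an alternative added after seeing the data. Depth limits the precision in single bins and in windows with few tags.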

Other observations

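Below the minimum of 200 tags lay 117 windows, of which 33 had no tag in either library. Of the 76 with a tag in both libraries, 29 had a log2 ratio of 0.5 or more and 9 of −0.5 or less, with a median of 0.12. They were not counted as losing windows.

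A window with a log2 ratio of −0.5 or less lay in 4 of the 883 places beside losing windows (0.453%), while such windows were 1.00% of all windows. Losing windows themselves held 216 of these places. Of the 4 losing windows concerned, 3 were on 3L from 23160001, from 23270001 and from 23380001, with folds of 3.44, 1.75 and 1.73, and 1 was on X from 7940001 to 7950000, with 385 EHMT+ and 243 EHMTDD1 tags. The windows on 3L lay within 1 Mb of the left-out centromeric end.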
